A study of Mus musculus with 3 samples.

Results

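Chaperones and their co-chaperones were described here at the level of alternative splicing in the mouse hippocampus. The genes were taken by symbol: the Dnaj, Hspa, Hspb, Hspd, Hspe, Hsph, Hsp90, Cct and Bag families, with St13 and Stip1. Of 8727 splicing events in 4860 genes listed for the series, 47 events in 31 genes belonged to this group. They comprised 36 skipped exons, 3 pairs of mutually exclusive exons, 3 retained introns, 3 alternative 3′ splice sites and 2 alternative 5′ splice sites. By role, 18 genes encoded J proteins, 4 HSP70 proteins, 2 HSP110 proteins, 1 a subunit of the CCT chaperonin, 1 a small heat shock protein and 5 nucleotide exchange factors or adaptors. No event was listed for an Hsp90, Hspd, Hspe or Stip1 gene. Hspbp1, which the symbol rule takes in with the small heat shock proteins, is an HSP70-binding co-chaperone and was placed with the exchange factors.

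The study used wild type C57BL/6J male mice that received adeno-associated virus (AAV9) in CA1 of both hippocampi, and RNA of the hippocampus was sequenced 10 days later; the labels give an age of 10 weeks. The virus carried Egfp with either 300 or 10 CTG repeats in its 3′ untranslated region, so that every animal, the reference included, expressed Egfp and a repeat from the vector. There were 3 groups of 1 mouse each: AAV9-CUG300 + CWG-cPIP, AAV9-CUG300 + vehicle and AAV9-CUG10 + vehicle. CWG-cPIP is a cyclic pyrrole-imidazole polyamide, a synthetic ligand made to bind CAG/CTG repeat DNA, and it was injected together with the virus. With 1 library per group no value has a biological replicate, and every interval and exact test below covers the counting error of the reads and compares libraries, not conditions. Reads from one PCR-amplified fragment are also not independent molecules.

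HSP70 proteins bind exposed hydrophobic stretches of unfolded proteins in a cycle driven by ATP. J proteins deliver the clients and start ATP hydrolysis, while HSP110 proteins and BAG-domain proteins release the nucleotide and so the client. In neurons particular J proteins also serve synaptic vesicles and the uncoating of clathrin. In myotonic dystrophy type 1, the disease the repeat models, expanded CUG RNA traps MBNL splicing factors, and the question put to the data was which exons and introns of the chaperone genes were used differently in the libraries. The unit of that measurement is PSI, the length-normalised share of reads that show the inclusion form (0 to 1).

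Some of the alternative regions change how the protein ends, and their sequences are given first because the results refer to them. All are read from GENCODE M21 transcripts on mm10, 5′ to 3′ on the gene's strand. In the first set the region is shown as far as the first stop codon of the transcript that includes it, and the capitals mark that stop. The Dnaja3 exon lies at chr16:4705844-4705960 and the Dnajb2 intron at chr1:75243662-75244793, both on the plus strand. The Dnajc5 exon lies at chr2:181548926-181549000 on the plus strand and the Hspa13 exon at chr16:75758632-75758727 on the minus strand.
Dnaja3 117-nt exon: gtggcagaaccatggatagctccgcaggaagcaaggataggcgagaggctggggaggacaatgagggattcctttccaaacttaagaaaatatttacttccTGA
Dnajb2 1132-nt intron: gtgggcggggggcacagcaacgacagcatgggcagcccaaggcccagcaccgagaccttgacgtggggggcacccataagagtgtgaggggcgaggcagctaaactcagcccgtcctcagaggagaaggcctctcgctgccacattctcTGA
Dnajc5 75-nt exon: gagggcacTGA
Hspa13 96-nt exon: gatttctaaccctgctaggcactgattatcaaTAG
The reading frame runs 101 nt into the Dnaja3 exon and 149 nt into the Dnajb2 intron, and GENCODE classes both including transcripts as protein coding. It ends after 8 nt of the Dnajc5 exon and 32 nt of the Hspa13 exon, and there the including transcripts are classed as targets of nonsense-mediated decay, the pathway that degrades mRNA with an early stop.

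The second set holds the 3 cassette exons of Bag6, all in frame and coding on the plus strand of chromosome 17. Capitals mark TGCT, the DNA form of the tetramer at the core of many MBNL binding sites, searched on the transcript strand alone.
Bag6 54-nt exon, chr17:35139023-35139076: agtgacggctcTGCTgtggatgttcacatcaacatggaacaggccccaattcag
Bag6 108-nt exon, chr17:35142498-35142605: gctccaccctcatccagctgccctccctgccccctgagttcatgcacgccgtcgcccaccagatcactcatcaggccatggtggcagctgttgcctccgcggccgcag
Bag6 147-nt exon, chr17:35146757-35146903: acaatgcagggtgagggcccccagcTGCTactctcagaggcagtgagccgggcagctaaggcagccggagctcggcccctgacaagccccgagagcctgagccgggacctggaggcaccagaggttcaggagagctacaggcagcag
The tetramer stood once in the 54-nt and the 147-nt exon and not in the 108-nt exon. The shares that follow are over listed skipped exons that match an exon of an annotated transcript. Among those within 10 nt of these lengths, 24.1%, 56% and 45.3% held it for 54, 147 and 108 nt. Over the chaperone exons 15 of 36 (41.7%) held it, against 45.2% of 5943 annotated skipped exons of all genes.

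The third set holds the pair of tandem 3′ splice sites, where the spliceosome chooses between acceptors 3 nt apart and so adds or leaves out 1 codon. The 3 optional bases are in capitals within 12 nt of spliced sequence on each side.
Bag6, chr17:35142923-35142925: tctggagctctgCAGggcgctgggctg
Dnajb6, chr5:29764399-29764401: ttgacttctttgAAGacccatttgatg

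Depth set what could be seen. In the 7659 events that all 3 libraries cover, the counts summed to 560672 counts with CUG300 + CWG-cPIP, 567697 with CUG300 + vehicle and 609546 with CUG10 + vehicle. The library with CUG300 + vehicle stood apart from the rest: Ttr, the choroid plexus transthyretin, took 67703 counts per 1000000 (CPM) there, against 112 CPM with CUG300 + CWG-cPIP and 171 CPM with CUG10 + vehicle. Over 46 chaperone events the median depth was 46.5 counts with CUG300 + CWG-cPIP, 27.5 with CUG300 + vehicle and 43 with CUG10 + vehicle. At least 20 counts were reached by 38, 27 and 36 of these events in the same order of libraries. An event enters the listing of a pair only if both forms were seen in it, so a single skipping read can decide whether an exon is listed.

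In most chaperone events the less used form had hardly any counts, as in most events of all genes. In 27 of 47 events, from 21 genes, the less used form had only 1 or 2 counts over the libraries together, and in 21 of them it had 1. In the libraries with at least 20 counts the PSI of these events lay between 0.906 and 1.0, a range that follows largely from their selection. Without that depth limit the lowest PSI was 0.738. The share of such events was 58.7% among chaperone events with all 3 libraries and 56.2% among all events. Examples were the 178-nt exon of Dnaja1, a major cytosolic J protein, the 108-nt exon of Bag1, an HSP70 exchange factor, and the 132-nt exon of Hsph1, the inducible HSP110. Dnaja1 had 0 of 219 skipping counts with CUG300 + CWG-cPIP, 1 of 147 with CUG300 + vehicle and 0 of 209 with CUG10 + vehicle. Bag1 had 0 of 216, 2 of 267 and 0 of 272 skipping counts in these libraries, and Hsph1 had 1 of 164, 0 of 60 and 0 of 119. These exons were included in nearly every transcript in all 3 libraries. The deepest exon of Cct8 had 0 of 108, 0 of 24 and 1 of 69 skipping counts, that of Dnajc8, a J protein of the spliceosome, 1 of 110, 0 of 79 and 0 of 105, and that of Dnajc15 0 of 97, 1 of 139 and 1 of 94. Dnajc21, which serves ribosome assembly, had 0 of 42, 0 of 60 and 1 of 54, and the 172-nt exon of Dnajc5 had 1 of 141, 0 of 48 and 0 of 152. Likewise, the 376-nt segment in the 3′ untranslated region of Dnajb11, listed as a retained intron, was kept in 177 of 179, 274 of 274 and 200 of 200 counts.

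At least 5 counts of the less used form were found in 15 events of 11 genes. Of the 36 skipped exons, 8 met this minimum, and 7 of these 8 had a skipping transcript in the annotation. Of the 20 skipped exons without an annotated skipping form 1 met it, the 83-nt exon of Hspa14. Lengths that were multiples of 3 made up 5 of the 8 exons (62.5%) and 62.4% of 1309 such exons of all genes. Over all 36 chaperone exons they made up 14 (38.9%), against 48.1% of all 6532 skipped exons listed.

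**Figure D1:**
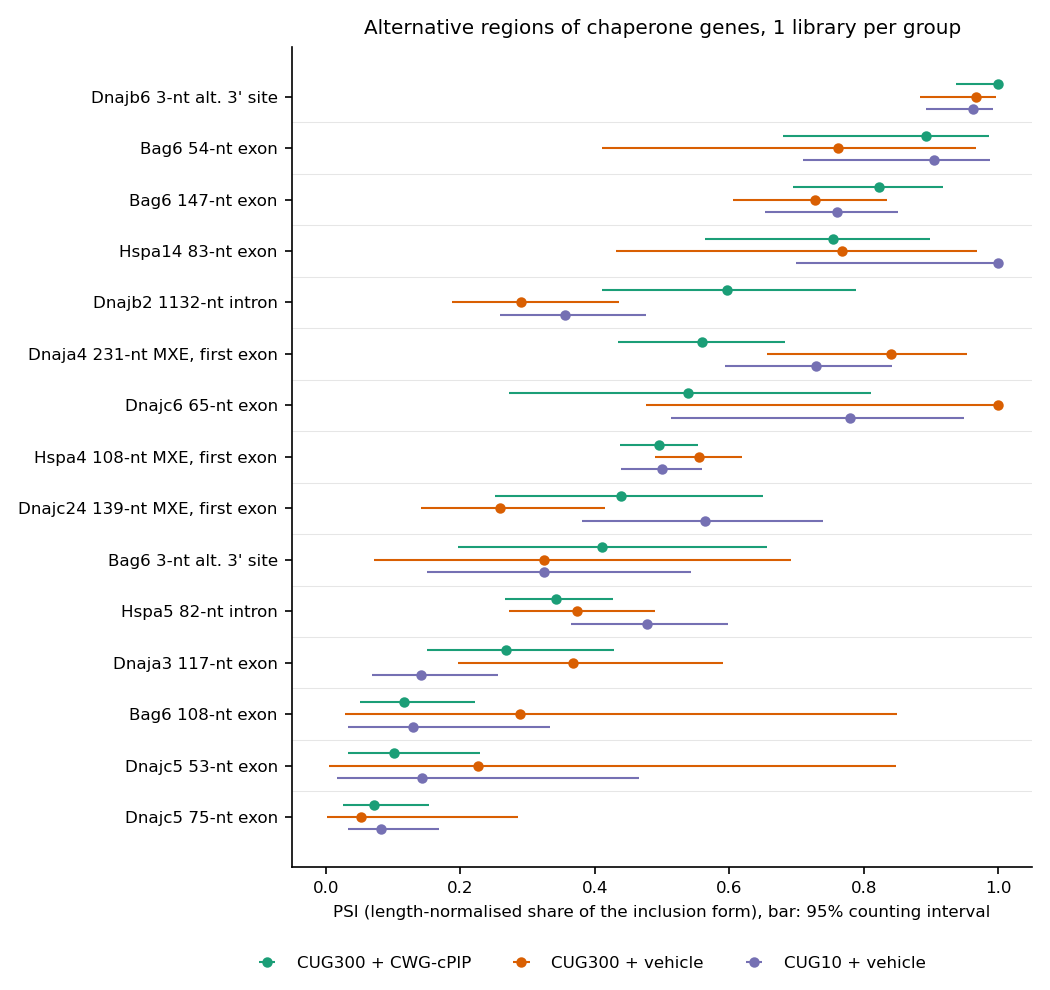
PSI (x axis, 0 to 1) of the 15 chaperone events with at least 5 counts of the less used form, 1 row per event; points are the 3 libraries, bars their 95% exact counting intervals, and for mutually exclusive exons (MXE) PSI is the share of the exon that comes first. The Dnajb2 intron is at 0.596 with CUG300 + CWG-cPIP, to the right of the other libraries, and the Dnaja3 exon is lowest, at 0.141, with CUG10 + vehicle, while most bars of an event overlap.

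No chaperone event passed the adjusted test in any pair of libraries. The test was a two-sided Fisher's exact test of inclusion and skipping counts, adjusted by Benjamini-Hochberg over all events of the type; a call also needed an absolute PSI difference above 0.15 and at least 20 counts in each library. For CUG300 + vehicle minus CUG10 + vehicle, 0 of 17 chaperone events with that depth were called, against 0.396% of all events. For CUG300 + CWG-cPIP minus CUG300 + vehicle the count was 0 of 21, against 0.994%, and for CUG300 + CWG-cPIP minus CUG10 + vehicle 0 of 28, against 0.226%. At these background shares fewer than 1 call would be met among as many events.

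By unadjusted exact p below 0.05, 2 of 17 chaperone events (11.8%) differed between CUG300 + vehicle and CUG10 + vehicle, where 4.71% of all events did. Between CUG300 + CWG-cPIP and CUG300 + vehicle 2 of 21 did (9.52%, background 6.36%), and between CUG300 + CWG-cPIP and CUG10 + vehicle 1 of 28 (3.57%, background 3.36%). By size alone, an absolute PSI difference above 0.15, the counts were 2 of 17, 3 of 21 and 3 of 28 in the same order of pairs. The background shares by size were 9.34%, 11.3% and 8.56%. The median absolute difference was 0.037, 0.034 and 0.042 for chaperone events and 0.041, 0.043 and 0.047 for all events. The events past this size were in Dnajc24, Dnaja3, Dnaja4, Dnajb2, Dnajb4 and Hspa14, and they are described below with the other variable members. Those of Dnajc24 and Dnaja4 were listed as mutually exclusive exons, though most transcripts held both exons of the pair. Their PSI therefore does not measure a choice between 2 forms. They are also among the events with an exact p below 0.05 in the first and second pair.

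**Figure D2:**
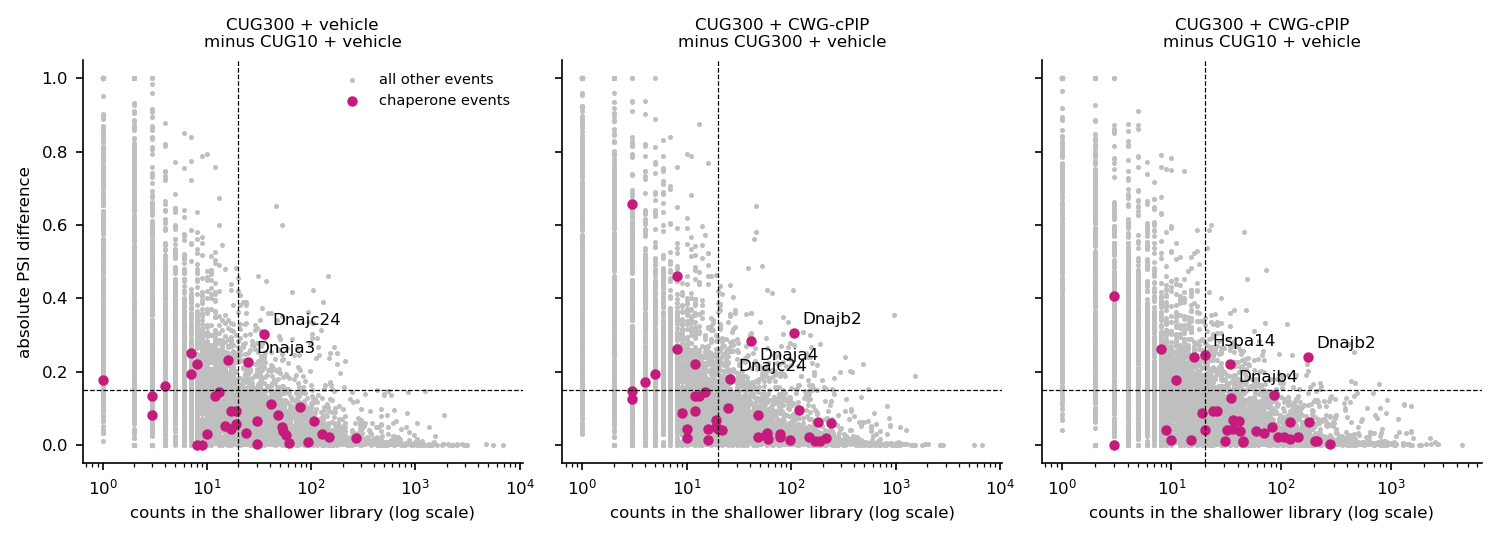
Absolute PSI difference (y axis) against the counts in the shallower library of the pair (x axis, log scale), 1 panel per pair of libraries; grey points are all other listed events, coloured points the chaperone events, and the dashed lines mark 0.15 and 20 counts. The named genes lie above 0.15 with at least 20 counts, and the largest chaperone differences without a name lie left of 20 counts.

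Among the J proteins, the retained intron of Dnajb2 was past the size limit against both other libraries, but only with length normalisation. Dnajb2 (HSJ1) is a neuron-enriched J protein that hands ubiquitinated clients to the proteasome, and its isoforms differ at the C terminus. The intron was retained at a PSI of 0.596 (95% exact interval 0.411 to 0.788) with CUG300 + CWG-cPIP, from 168 inclusion and 7 splicing counts. With CUG300 + vehicle the PSI was 0.29 (0.188 to 0.436; 93 and 14 counts) and with CUG10 + vehicle 0.355 (0.259 to 0.476; 188 and 21 counts). The library with CUG300 + CWG-cPIP was the high one, and its interval overlapped those of the other libraries. The difference of CUG300 + CWG-cPIP minus CUG300 + vehicle was 0.306 (95% Newcombe interval 0.084 to 0.494), with an exact p of 0.00856 and an adjusted exact p of 0.152. Against CUG10 + vehicle it was 0.241 (0.029 to 0.427; exact p = 0.0292, adjusted exact p = 0.937). CUG300 + vehicle minus CUG10 + vehicle gave -0.065 (-0.212 to 0.092). PSI divides the inclusion counts by the length of this 1132-nt intron, so that a splicing count weighs far more, and as plain shares of counts the first and second of these differences were 0.091 and 0.06. The other Dnajb2 events varied little: the 54-nt exon had 1 skipping count in 40, 0 in 22 and 0 in 32 over the libraries in the order named, and the 52-nt alternative 5′ site in the 5′ untranslated region lay between 0.866 and 1.0.

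Dnaja3 (Tid1) is a mitochondrial J protein whose isoforms differ in their C-terminal end. Its 117-nt exon, which carries a stop of its own as printed above, had 17 inclusion and 18 skipping counts with CUG300 + CWG-cPIP (PSI 0.268, 0.151 to 0.429). It had 15 and 10 counts with CUG300 + vehicle (0.368, 0.196 to 0.591) and 11 and 26 with CUG10 + vehicle (0.141, 0.068 to 0.256). The library with CUG10 + vehicle was lowest and its interval overlapped both others. CUG300 + vehicle minus CUG10 + vehicle was 0.227 (0.037 to 0.429; exact p = 0.0214, adjusted exact p = 1.0). CUG300 + CWG-cPIP minus CUG300 + vehicle was -0.1 (-0.319 to 0.114; exact p = 0.439), and CUG300 + CWG-cPIP minus CUG10 + vehicle 0.127 (-0.024 to 0.285; exact p = 0.147).

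The events in Dnaja4, Dnajc24 and Hspa4 were listed as mutually exclusive exons, a type in which a transcript holds either of 2 neighbouring exons. Dnaja4 is a cytosolic J protein, Dnajc24 (DPH4) takes part in making diphthamide on elongation factor 2, and Hspa4 is an HSP110-family exchange factor. For Dnaja4 the exon that comes first (231 nt, chr9:54710502-54710732) had 53 counts and the second (101 nt, chr9:54714270-54714370) 24 counts with CUG300 + CWG-cPIP, a PSI of 0.559 (0.435 to 0.682). With CUG300 + vehicle there were 37 and 4 counts (0.841, 0.656 to 0.953), and with CUG10 + vehicle 61 and 13 (0.729, 0.594 to 0.842). CUG300 + CWG-cPIP was the low library and CUG300 + vehicle the high one. The difference between them was -0.283 (-0.434 to -0.072; exact p = 0.0117, adjusted exact p = 0.118). The pair with CUG10 + vehicle was not listed for CUG300 + CWG-cPIP, and its difference was -0.17 (-0.326 to 0.002). CUG300 + vehicle minus CUG10 + vehicle was 0.112 (-0.092 to 0.273; exact p = 0.411).

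In Dnajc24 the first exon (139 nt, chr2:105980982-105981120, minus strand) had 14 counts and the second (69 nt, chr2:105970448-105970516) 12 with CUG300 + CWG-cPIP, a PSI of 0.439 (0.252 to 0.65). There were 13 and 25 counts with CUG300 + vehicle (0.259, 0.141 to 0.415) and 23 and 12 with CUG10 + vehicle (0.563, 0.381 to 0.739). The library with CUG300 + vehicle was lowest. CUG300 + vehicle minus CUG10 + vehicle was -0.304 (-0.492 to -0.082; exact p = 0.01, adjusted exact p = 0.19), and CUG300 + CWG-cPIP minus CUG300 + vehicle 0.18 (-0.042 to 0.394; exact p = 0.132). In Hspa4, with 294, 241 and 277 counts in the libraries in the order named, the PSI was 0.496, 0.555 and 0.5, and the listed differences were -0.06 (-0.143 to 0.025) for CUG300 + CWG-cPIP minus CUG300 + vehicle and -0.004 (-0.086 to 0.077) for CUG300 + CWG-cPIP minus CUG10 + vehicle.

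The same exons were also listed as skipped exons, and there nearly all transcripts held them. The Dnaja4 exons had PSI between 0.855 and 1.0, the Dnajc24 exons between 0.868 and 1.0 and the Hspa4 exons between 0.99 and 1.0 over the 3 libraries. Each of these exons had at most 1 skipping count in a library. In the annotation 2 transcripts of Dnaja4, 2 of Hspa4 and 1 of Dnajc24 hold both exons of the pair. None of Dnaja4 or Hspa4 joins the flanking exons through one exon alone, while Dnajc24 has 1 transcript for each single exon. Hence for these pairs PSI sets the reads of one exon beside those of the other, in transcripts that mostly held both, and the events of one gene share reads.

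**Figure D3:**
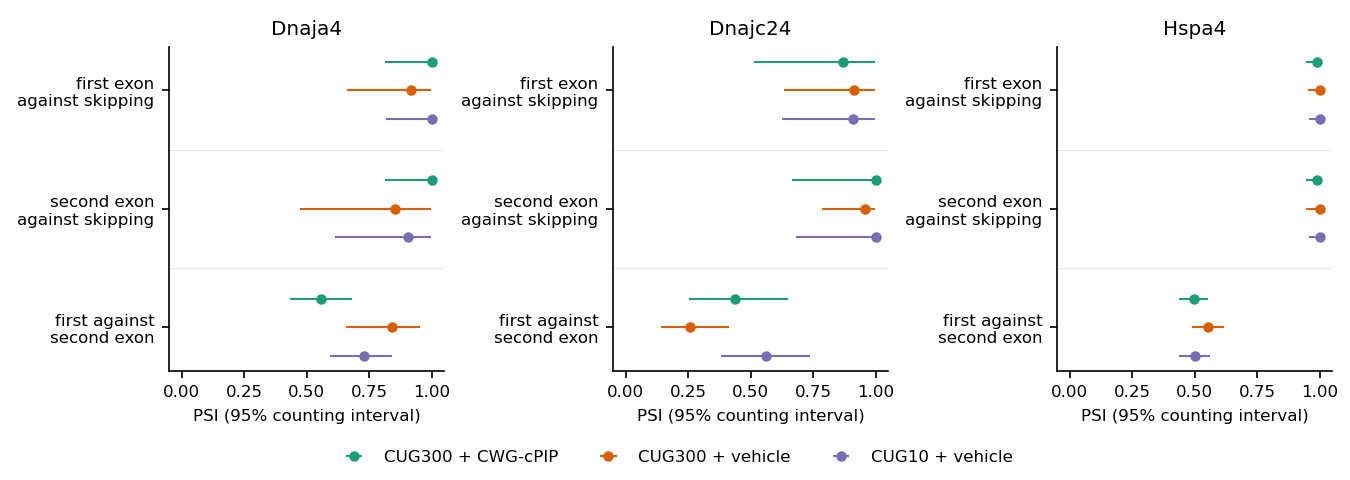
PSI (x axis, 0 to 1) with 95% exact counting intervals for the exon pairs of Dnaja4, Dnajc24 and Hspa4 in the 3 libraries; the upper rows give each exon against skipping and the lowest row the first exon against the second. The exons sit at 0.855 or above when set against skipping, and between 0.259 and 0.841 when set against each other.

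Other J proteins with a variable exon had too few counts in at least 1 library. The Dnajc5 exon with the early stop, in the gene for the synaptic vesicle chaperone CSPα, had 6 inclusion and 39 skipping counts with CUG300 + CWG-cPIP, 1 and 9 with CUG300 + vehicle and 7 and 39 with CUG10 + vehicle. Its PSI of 0.071, 0.052 and 0.082 was low in each library. CUG300 + CWG-cPIP minus CUG10 + vehicle was -0.011 (-0.101 to 0.079; exact p = 1.0). The 53-nt exon in the 5′ untranslated region of Dnajc5 had 31, 3 and 9 counts and a PSI of 0.101, 0.226 and 0.143, so no difference was detectable at this depth. Dnajc6 encodes auxilin, which recruits HSC70 to clathrin coats. Its 65-nt exon, also in the 5′ untranslated region, had a PSI of 0.539 (16 counts), 1.0 (8 counts) and 0.78 (23 counts) in the order named, and all 3 intervals overlapped. The 242-nt exon of Dnajb4, a stress-inducible J protein, had 3 skipping counts in 48 with CUG300 + CWG-cPIP, 0 in 12 with CUG300 + vehicle and 0 in 34 with CUG10 + vehicle. CUG300 + CWG-cPIP minus CUG10 + vehicle was -0.222 there (-0.464 to 0.131; exact p = 0.263). For so long an exon a skipping read weighs more in PSI than an inclusion read, and as a plain share of counts the difference was -0.062.

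The tandem site of Dnajb6, a J protein that suppresses polyglutamine aggregation, used the 3 extra bases in 59 of 59, 60 of 62 and 78 of 81 counts. That of Bag6 used them in 8 of 19, 3 of 9 and 8 of 24 counts. Thus the acceptor that adds a codon was almost the only one in Dnajb6 and the less used one in Bag6, and neither differed between libraries beyond counting error (lowest exact p of the listed pairs 0.263 for Dnajb6 and 0.752 for Bag6). In Dnajc28, whose alternative 5′ site was not listed with CUG300 + vehicle, the longer form had 4 of 6 counts with CUG300 + CWG-cPIP and 2 of 3 with CUG10 + vehicle. That region overlaps Gm15964 on the opposite strand.

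Of the HSP70 genes, Hspa5 encodes BiP, the chaperone of the endoplasmic reticulum and a target of the unfolded protein response. Its 82-nt intron in the 5′ untranslated region (chr2:34772147-34772228) had 68 inclusion and 62 splicing counts with CUG300 + CWG-cPIP, a PSI of 0.342 (0.266 to 0.427). It had 44 and 35 with CUG300 + vehicle (0.374, 0.272 to 0.489) and 56 and 29 with CUG10 + vehicle (0.478, 0.365 to 0.598). The PSI was highest with CUG10 + vehicle, and the intervals overlapped. CUG300 + CWG-cPIP minus CUG10 + vehicle was -0.136 (-0.268 to -0.001; exact p = 0.0662, adjusted exact p = 1.0). CUG300 + vehicle minus CUG10 + vehicle was -0.105 (-0.251 to 0.048; exact p = 0.202).

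Hspa14 encodes an HSP70 that works at the ribosome with a J protein. Its 83-nt exon (chr2:3511015-3511097) was skipped in 6 of 45 counts with CUG300 + CWG-cPIP, 2 of 16 with CUG300 + vehicle and 0 of 20 with CUG10 + vehicle, giving a PSI of 0.754, 0.767 and 1.0. CUG300 + CWG-cPIP minus CUG10 + vehicle was -0.246 (-0.429 to 0.068; exact p = 0.166), and -0.133, inside the size limit, as a plain share of counts. The exon overlaps Gm45902 on the same strand, so its reads cannot be assigned to one gene with certainty. Hspa13, a microsomal HSP70, included its exon with the early stop in 1 of 14, 1 of 3 and 1 of 10 counts. Hspa12a, a distant relative of the family, had 26 counts with CUG300 + CWG-cPIP, 1 with CUG300 + vehicle and 11 with CUG10 + vehicle, and a single skipping count.

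Among the exchange factors and adaptors, Bag6 had the most alternative regions. Bag6 takes up tail-anchored and mislocalised membrane proteins and passes them on or to degradation. Its 147-nt exon was included in 111 of 119 counts with CUG300 + CWG-cPIP (PSI 0.823, 0.695 to 0.917), 112 of 126 with CUG300 + vehicle (0.728, 0.605 to 0.835) and 151 of 167 with CUG10 + vehicle (0.76, 0.653 to 0.85). The 3 libraries did not differ beyond counting error, since the pairwise differences were -0.031 (-0.177 to 0.11), 0.095 (-0.063 to 0.24) and 0.063 (-0.086 to 0.196). The 108-nt exon was the mostly skipped one, with 9 of 37, 2 of 4 and 4 of 15 inclusion counts and a PSI of 0.116, 0.289 and 0.129. The 54-nt exon was mostly included, with a PSI of 0.893, 0.761 and 0.905 from 31, 13 and 35 counts. Bag2, an inhibitor of the ubiquitin ligase CHIP, had 12, 8 and 8 counts and overlaps Gm37905 on the opposite strand. The 49-nt exon of St13, the HSP70-interacting protein Hip, was skipped in 0 of 74, 1 of 58 and 0 of 67 counts, and the 298-nt exon of Hspbp1 in 0 of 82, 0 of 53 and 1 of 99. Hspb2, the single small heat shock gene, had 3, 7 and 8 counts at a region that overlaps Cryab, itself a small heat shock gene, on the opposite strand.

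The counts at the events of a gene were also summed, inclusion and skipping together, as a rough measure of its level. This sum covers only the listed exons, so it was compared between libraries for a gene and never between genes. Where events of a gene share exons, a read can enter the sum more than once, and the interval is then too narrow. The composition of the libraries differed. Over 2051 genes with at least 20 counts in each library the median log2 ratio of CPM was -0.33 for CUG300 + vehicle over CUG10 + vehicle, 0.37 for CUG300 + CWG-cPIP over CUG300 + vehicle and 0.04 for CUG300 + CWG-cPIP over CUG10 + vehicle. For the called totals a ratio relative to these medians is therefore given beside the CPM ratio. In a whole tissue, fewer cells of a type and less RNA per cell cannot be told apart.

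A gene was called if its ratio was at least 2 or at most 0.5 and the 95% exact conditional interval excluded 1. For CUG300 + vehicle over CUG10 + vehicle, 5 of 26 chaperone genes were called lower (19.2%) and 0 higher, against a background of 26.1% lower and 4.78% higher. For CUG300 + CWG-cPIP over CUG300 + vehicle, 8 of 28 were called higher (28.6%) and 0 lower, against 38.1% higher and 6.61% lower. With scaling by the median ratio 7 were higher and 2 lower there, the lower ones being Dnajc24 (0.432) and Dnajc17 (0.415). For CUG300 + CWG-cPIP over CUG10 + vehicle, 3 of 29 were called higher (10.3%) and 0 lower, against 9.13% and 0.95%. The median ratio of chaperone genes was 0.74, 1.51 and 1.14, and that of all genes tested 0.716, 1.62 and 1.14. Over the 2051 deeper genes used for scaling it was 0.795, 1.29 and 1.03, nearer to 1. A ratio relative to the median gene, and a call by it, thus depends on the genes taken for the median. The first and second of these comparisons share the library with CUG300 + vehicle, so a low count in that library enters both. Listing and total are also not independent. The only events of Dnajb4, Dnajc27 and Hsph1 had skipping counts with CUG300 + CWG-cPIP alone, where their totals were highest. Those of Cct8 and Hspa12a had them with CUG10 + vehicle alone. With CUG300 + vehicle, where each of these totals was lowest, none had a skipping count.

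The called totals came from 5 J proteins and 4 other genes, while 18 of the 31 genes encode J proteins. Dnajc5 had 387 CPM with CUG300 + CWG-cPIP, 107 with CUG300 + vehicle and 340 with CUG10 + vehicle (217, 61 and 207 counts). Its ratio of CUG300 + vehicle over CUG10 + vehicle was 0.316 (0.234 to 0.423, and 0.398 relative to the median gene). CUG300 + CWG-cPIP over CUG300 + vehicle was 3.6 (2.7 to 4.87, and 2.78 relative to the median gene). The library with CUG300 + vehicle was low and its Poisson interval did not overlap the others. Dnajc27, a J protein with a Rab-like GTPase domain, had 121, 17.6 and 59.1 CPM in the same order of libraries (68, 10 and 36 counts). CUG300 + vehicle over CUG10 + vehicle was 0.298 (0.132 to 0.614, and 0.375 relative to the median gene), and CUG300 + CWG-cPIP over CUG300 + vehicle 6.89 (3.52 to 15, and 5.31 relative to the median gene). CUG300 + CWG-cPIP over CUG10 + vehicle was 2.05 (1.35 to 3.17), and this call was lost relative to the median gene, at 1.99. Dnajb4 had 85.6, 21.1 and 55.8 CPM. CUG300 + vehicle over CUG10 + vehicle was 0.379 (0.179 to 0.75, and 0.477 relative to the median gene) and CUG300 + CWG-cPIP over CUG300 + vehicle 4.05 (2.12 to 8.38, and 3.13 relative to the median gene). Dnajc6 had 28.5, 14.1 and 37.7 CPM from 16, 8 and 23 counts, with a ratio of 0.373 (0.144 to 0.865) for CUG300 + vehicle over CUG10 + vehicle. Relative to the median gene the ratio was 0.47 and no longer called, since its interval then held 1. Dnajc10 (ERdj5), a disulfide reductase of the endoplasmic reticulum, had 259, 120 and 218 CPM and was called in the second comparison alone (2.16, 1.61 to 2.92), where scaling by the median brought it to 1.67 and ended the call. With only the deepest event of each gene, Dnajc10 was at 1.96 in that comparison and not called. Dnaja4 was then called higher, at 2.

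Outside the J proteins, Cct8, a subunit of the chaperonin that folds actin and tubulin, had 193 CPM with CUG300 + CWG-cPIP, 42.3 with CUG300 + vehicle and 113 with CUG10 + vehicle (108, 24 and 69 counts). CUG300 + vehicle over CUG10 + vehicle was 0.373 (0.224 to 0.602, and 0.47 relative to the median gene) and CUG300 + CWG-cPIP over CUG300 + vehicle 4.56 (2.91 to 7.42, and 3.52 relative to the median gene). CUG300 + CWG-cPIP over CUG10 + vehicle was 1.7 (1.25 to 2.34), below the fold needed for a call. Hsph1 had 293, 106 and 195 CPM, and its ratio of CUG300 + CWG-cPIP over CUG300 + vehicle was 2.77 (2.05 to 3.78, and 2.14 relative to the median gene). Hspa14 had 80.3, 28.2 and 32.8 CPM, all from the exon that overlaps Gm45902 on the same strand, so the gene behind this total is not certain. CUG300 + CWG-cPIP was 2.85 (1.58 to 5.4, and 2.2 relative to the median gene) over CUG300 + vehicle and 2.45 (1.42 to 4.37, and 2.37 relative to the median gene) over CUG10 + vehicle. Hspa12a had 46.4, 1.76 and 18 CPM, and the ratio of CUG300 + CWG-cPIP over CUG300 + vehicle of 26.3 had an interval of 4.32 to 1079, as it rests on 1 count (20.3 relative to the median gene). Over CUG10 + vehicle the ratio was 2.57 (1.23 to 5.76, and 2.49 relative to the median gene).

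Some totals were higher in the library with CUG300 + vehicle without reaching the fold in CPM. Dnajb11 (ERdj3), a J protein of the endoplasmic reticulum that serves BiP, had 319, 483 and 328 CPM in the order named. Its ratio of CUG300 + vehicle over CUG10 + vehicle was 1.47 (1.22 to 1.77, and 1.85 relative to the median gene). Dnajc15, a J protein of the mitochondrial inner membrane, had 173, 245 and 154 CPM (1.59, 1.21 to 2.09). Dnajc24 had 111, 197 and 135 CPM (1.47, 1.09 to 1.97), and its ratio of CUG300 + CWG-cPIP over CUG300 + vehicle, 0.561 (0.404 to 0.771), was called lower at 0.432 relative to the median gene. The 3 Dnajc24 events share reads, so these intervals are too narrow. With its deepest event alone the 2 ratios were 1.12 and 0.73 in CPM. In each of Dnajb11, Dnajc15 and Dnajc24 the library with CUG300 + vehicle was the high one, also after scaling by the median. The remaining genes with at least 100 counts were not called. Among them CUG300 + vehicle over CUG10 + vehicle was 0.582 (0.471 to 0.717) for Dnajb2, 0.575 (0.404 to 0.81) for Hspbp1 and 0.665 (0.515 to 0.854) for Dnaja4. In CPM, in the order of libraries above, Dnajb2 had 419, 248 and 427, Hspbp1 146, 93.4 and 162 and Dnaja4 332, 183 and 276. Dnajc8 had 196, 139 and 172 CPM, Dnajb6 105, 109 and 133, Dnajc21 74.9, 106 and 88.6 and St13 132, 102 and 110. Hspa4 had 1423, 1050 and 1129 CPM, Bag1 385, 470 and 446, Dnaja1 391, 259 and 343 and Bag6 367, 268 and 395. Hspa5 had 232, 139 and 139 CPM. Its ratio of CUG300 + CWG-cPIP over CUG10 + vehicle was 1.66 (1.26 to 2.21), so that the CUG300 + CWG-cPIP library was the high one.

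**Figure D4:**
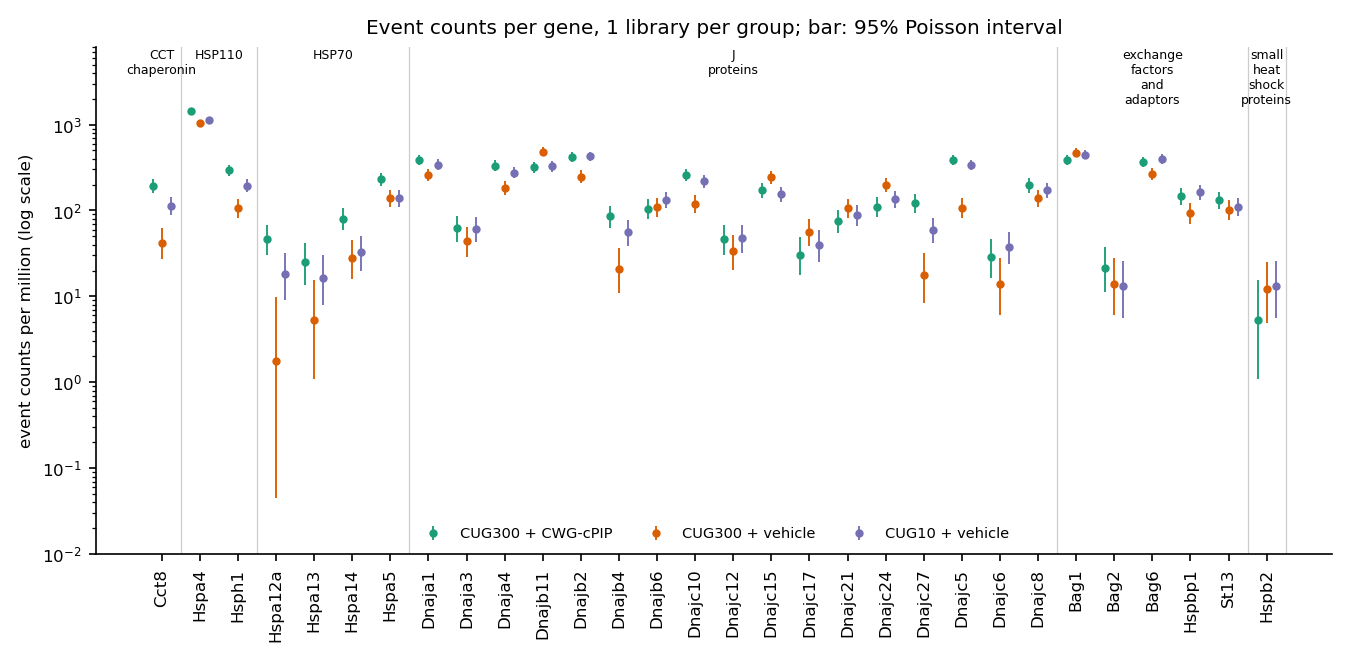
CPM summed over the listed events of each chaperone gene (y axis, log scale), grouped by role, in the 3 libraries; bars are 95% Poisson intervals of the counts. Cct8, Dnajb4, Dnajc5 and Dnajc27 are lowest with CUG300 + vehicle (17.6 to 107 CPM), whereas Dnajb11, Dnajc15 and Dnajc24 are highest there (197 to 483 CPM).

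Markers of cell types also differed between the libraries. The 7 neuronal markers with counts, of 9 in the list, summed to 11288 CPM with CUG300 + CWG-cPIP, 3778 with CUG300 + vehicle and 10465 with CUG10 + vehicle. All 7 were lower with CUG300 + vehicle than with CUG10 + vehicle, with a median ratio of 0.464. The 8 microglial and immune markers with counts, of 16, summed to 5033, 20078 and 2884 CPM, and all 8 were higher with CUG300 + vehicle than with CUG10 + vehicle (median ratio 6.75). Sums for oligodendrocytes (4 of 8 markers) were 9763, 7317 and 8770 CPM and for astrocytes (2 of 6) 1234, 1450 and 648 CPM. For choroid plexus and endothelium (3 of 6) they were 769, 71313 and 825 CPM, nearly all Ttr and Enpp2. No marker with counts was at 0 in any library, and the part of cell composition in the chaperone totals was not tested.

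The chaperone promoters were searched for the core of the heat shock element, GAANNTTC or its inverse TTCNNGAA (each its own reverse complement), between 250 bases before and 50 after the start, in RefSeq's promoter table on GRCm38.p6. Of the 31 genes 26 matched, and 7 of them (26.9%) held the core, against 17% of 27025 genes. These 7 were Dnaja1, Dnaja4, Dnajb4, Dnajb6, Dnajc10, Dnajc27 and Hsph1. The matches before the start are printed, with the core in capitals, for the 4 of these genes that had called totals; Hsph1 held further matches after its start.
Dnajb4, chr3:152193836-152193875, minus strand: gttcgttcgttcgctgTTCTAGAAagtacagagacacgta
Dnajc10, chr2:80315268-80315307, plus strand: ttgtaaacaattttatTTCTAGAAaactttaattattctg
Dnajc27, chr12:4082345-4082384, plus strand: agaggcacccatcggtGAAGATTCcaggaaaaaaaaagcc
Hsph1, chr5:149636346-149636385, minus strand: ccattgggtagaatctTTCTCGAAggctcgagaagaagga
A match is a run of letters, and it does not show that heat shock factor was bound. Among the 7 genes the total of CUG300 + vehicle over CUG10 + vehicle was 0.755 for Dnaja1, 0.665 for Dnaja4, 0.379 for Dnajb4, 0.822 for Dnajb6, 0.549 for Dnajc10, 0.298 for Dnajc27 and 0.541 for Hsph1. Relative to the median gene, Dnajb6 turned to 1.03 and the others stayed between 0.375 and 0.95. CPM ratios below 1 were common in this pair. They were found for 20 of 26 chaperone genes tested, and the median over all genes tested was 0.716. A link between the core and the totals was not tested.

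Other genes of protein folding and the stress response were counted in the same way. Of 54 such genes, among them heat shock factors, prefoldins, HSP90 co-chaperones and folding enzymes of the endoplasmic reticulum, 23 had listed events. None of the 15, 16 and 18 events with at least 20 counts per library, in the 3 pairs in the order above, was called by the adjusted exact test or by size. The background shares were 0.396%, 0.994% and 0.226% by the test and 9.34%, 11.3% and 8.56% by size. At these shares few calls would be met among so few events. By unadjusted exact p below 0.05, 1 of 15 differed in the first pair (Tcp1, background 4.71%), 0 of 16 in the second (6.36%) and 1 of 18 in the third (Pfdn5, 3.36%). Their totals were called lower with CUG300 + vehicle than with CUG10 + vehicle for 2 of 20 genes (Tomm34 and Sec63), where 26.1% of all genes were. With CUG300 + CWG-cPIP they were called higher than with CUG300 + vehicle for 5 of 20 genes (Cdc37l1, Canx, Tomm34, Gak and Sec63), where 38.1% of all genes were. None of 21 was called between CUG300 + CWG-cPIP and CUG10 + vehicle, where 9.13% of all genes were higher and 0.95% lower.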

How the data were processed

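RNA of the hippocampus of 1 mouse per group was sequenced from directional libraries. Per the paper's methods the authors trimmed reads with Trim Galore, aligned them to mm10 with STAR and counted splicing events with rMATS; the submitters' processing notes give Trim Galore 0.6.6, STAR 2.7.9a, RSEM 1.3.3 and DESeq2 1.36.0. The 15 deposited tables (5 event types, 3 pairs of libraries) hold counts of inclusion and skipping reads, junction and exon body reads together, and the authors' PSI as a fraction. Their p-values, adjusted p-values and PSI differences between libraries were not used. The gene expression values were not analysed here.

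The 8727 distinct events were joined by coordinates. All 14737 counts present in more than 1 table were identical, and PSI recomputed as (inclusion / length) over the sum of both forms deviated from the deposited fraction by at most 0.0005. The skipping form of 74 nt is that of a 75-nt read; the methods name longer reads, a difference that was not resolved. PSI intervals are 95% Clopper-Pearson, and differences carry Newcombe intervals. The p-values are from two-sided Fisher's exact tests with Benjamini-Hochberg adjustment within event type and pair (SciPy). The functions were run on simulated counts of skipped exons alone, with shifts of the inclusion share larger than those described here. That run does not show whether smaller shifts or other event types would be detected. Gene totals are event counts in CPM, that is per 1000000 counts of the library in the 7659 events that all 3 libraries cover. Ratios carry exact conditional binomial intervals and were tested at 20 counts or more in the pair. The counts in those 7659 events ranged from 560672 to 609546 per library and are not the depth of sequencing.

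Named were events past the size limit, then the deepest event of a gene with 20 counts in each library, and genes with 100 counts in total; others are given by range or listed, and 20 counts were not required for description. The members and lists were chosen with earlier results of these data known. Alternatives were the count minimum, the PSI limit, length normalisation, the adjustment, the scaling, the events summed and Ttr. Annotation and sequences are from GENCODE M21 and RefSeq.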

Additional observations from a re-analysis of the deposited data

How the results depend on the processing

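The count of 0 chaperone events called by the adjusted exact test held in all 3 pairs with a minimum of 10 counts, no minimum, a PSI difference above 0.10, no length normalisation and an adjustment over all event types. Counts by size alone depended on depth. For CUG300 + vehicle minus CUG10 + vehicle there were 8 events with no minimum count and 4 with a difference above 0.10, against 2. For CUG300 + CWG-cPIP minus CUG300 + vehicle there were 9 with no minimum, against 3. For CUG300 + CWG-cPIP minus CUG10 + vehicle there were 5 with a minimum of 10 counts, 7 with no minimum, 5 with a difference above 0.10 and 1 without length normalisation, against 3. Gene totals called past 2-fold were 3, 4 and 1 for these pairs, against 5, 8 and 3, when only events listed in all 3 pair tables were summed. Then 12, 13 and 14 genes could be tested. Of these calls 2, 3 and 1 were also main calls, while Dnajc10 in the first pair and Dnaja4 in the second were new. Cct8, Dnajb4, Dnajc27, Hsph1 and Hspa12a had no such event and could not be tested. The other 32 alternative counts stayed within 1.5 times, and no called total changed direction under any alternative. No paired analysis was possible because each group holds 1 library. The depth with CUG300 + vehicle limits what can be seen: 27 of 46 chaperone events reached 20 counts there, and no value has a replicate.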
